A study of Mus musculus with 3 samples.

Results

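Zrf1 peaks that crowd together along the chromosome, yet do not coincide with Ring1B, were examined in mouse neural progenitor cells (NPC). Members were chosen by the peak intervals themselves: a Zrf1 peak was taken if it was narrower than 1700 bp, overlapped no Ring1B peak, and had another Zrf1 peak of any width within 5000 bp on the same chromosome. This held for 1269 of 11647 Zrf1 peaks (10.9%). They lay in 678 runs, a run being a series of Zrf1 peaks in which each gap is at most 5000 bp. In the whole Zrf1 list 1643 peaks had a Zrf1 neighbour that near, which is 14.1%. The other Zrf1 peaks used for comparison are the 8135 isolated ones, which met the same width and Ring1B conditions but had no neighbour within 5000 bp, and the 1976 on Ring1B.

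The NPC were derived in culture from the E14TG2a embryonic stem cell line and grown in N2 medium with EGF and FGF2, and no genotype or further treatment separates the libraries. Chromatin immunoprecipitation and sequencing was done once with a Zrf1 antibody, once with a Ring1B antibody and once with rabbit IgG, so the design compares where Zrf1 and Ring1B bind. The lists hold 11647 Zrf1 and 11790 Ring1B peak intervals. They carry no read counts, so depth is unknown, and IgG was not analysed here. With 1 library per antibody no difference has an error between samples, and peaks of a list are not replicates. Values are therefore given as descriptions with no test, and intervals on shares (exact Clopper-Pearson, 95%) cover counting error only. Neighbouring members share their surroundings, so these intervals are too narrow. The cell type could not be set against markers, since intervals carry no expression values.

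Zrf1, the product of Dnajc2, is a J-domain protein known both as a chaperone partner at the ribosome and as a chromatin protein that recognises ubiquitylated histone H2A. Ring1B, the product of Rnf2, is the catalytic subunit of Polycomb repressive complex 1 that attaches this ubiquitin. Zrf1 is known for displacing the Polycomb complex from chromatin when genes are switched on during differentiation. Sites of Zrf1 without a Ring1B peak are thus of interest as places where one protein was called and the other was not, although a missing peak does not show missing binding.

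Most members came as simple pairs. Of the 678 runs, 591 (87.2%) held 2 Zrf1 peaks, 71 held 3 and 16 held 4 or more. In 442 runs (65.2%) the run was a pair of 2 members and nothing else, and 486 runs (71.7%) consisted of members only. The remaining runs also held 221 Zrf1 peaks that were not members: 169 lay on Ring1B and 52 were at least 1700 bp wide without Ring1B. By number of members, 161 runs had 1, 464 had 2, 42 had 3, 7 had 4, 2 had 5, and single runs had 6 and 10. The runs were compact, with a median span of 4561 bp (quartiles 2990 and 5848 bp), of which Zrf1 peaks covered a median of 42.2%. Together the members covered 1077 kb, or 10.1% of all sequence under Zrf1 peaks.

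The gap to the nearest Zrf1 peak ran from 3 to 4967 bp among members, with a median of 2211 bp. Gaps of at most 1 kb were the most frequent. Over the whole Zrf1 list there were 275 of them, while each further step of 1 kb up to 5 kb held 149 to 162 gaps. Just past the limit of the rule the counts were 131 between 5 and 6 kb and 152 between 6 and 7 kb, and they fell to 85 between 19 and 20 kb. The limit of 5 kb therefore marks no clear step in the spacing. Within the first kb, 61 gaps were at most 100 bp, and 76 members (5.99%) had their nearest neighbour that close. The members with a neighbour within 500 bp numbered 225.

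**Figure D1:**
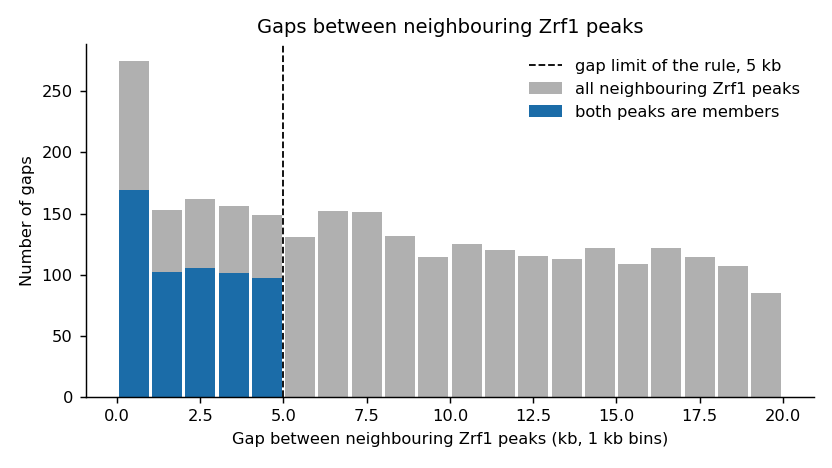
Number of gaps (vertical axis) between neighbouring Zrf1 peaks by gap length in kb (horizontal axis, bins of 1 kb). Grey bars are all neighbours, the blue part of a bar those where both peaks are members, and the dashed line is the 5 kb limit; the bin up to 1 kb holds 275 gaps and the bins on both sides of the limit 149 and 131.

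The closest members almost touched. On chromosome 10 (mm9) peaks at 125340271 to 125341335 and 125341338 to 125341996 were 3 bp apart. On chromosome 14 the gap was 6 bp, between peaks at 46389722 to 46390952 and 46390958 to 46391915. On chromosome 12 it was 7 bp, between 8615002 to 8615651 and 8615658 to 8616334. These pairs would span 1725, 2193 and 1332 bp if joined, so the first 2 would exceed the width limit as single peaks. The next in order were gaps of 17 bp on chromosome 3 (157104296 to 157105630) and chromosome 19 (25710326 to 25711584). The 10 shortest gaps between 2 members ended at 31 bp on chromosome 11, between 74297321 and 74299575. The joined spans of these 10 pairs ran from 1226 to 2254 bp. When all Zrf1 peaks at most 100 bp apart were merged before the rule was applied, there were 1193 members in 645 runs. Merging over 500 bp gave 1048 members in 583 runs.

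Members were narrow peaks, as the rule requires, and their median and quartiles lay somewhat above those of isolated ones. Their median was 779 bp, with quartiles at 637 and 986 bp. For the 8135 isolated peaks under the same limit the median was 739 bp, with quartiles at 618 and 913 bp. Both distributions peaked between 600 and 700 bp, which held 21.6% of members and 22.4% of isolated peaks. Widths of at least 1400 bp were held by a small share of either set; the bin from 1400 to 1500 bp held 2.92% of members and 1.60% of isolated peaks. By gap, the median width of members was 818 bp where the nearest peak lay within 500 bp, and 760 to 787 bp in the longer gap classes. By run size, the median was 773 bp in runs of 2, 749 bp in runs of 3 and 1012 bp in runs of 4 or more (68 members in 16 runs). Without the 3 runs that hold the most members the last value was 961 bp (47 members in 13 runs).

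**Figure D2:**
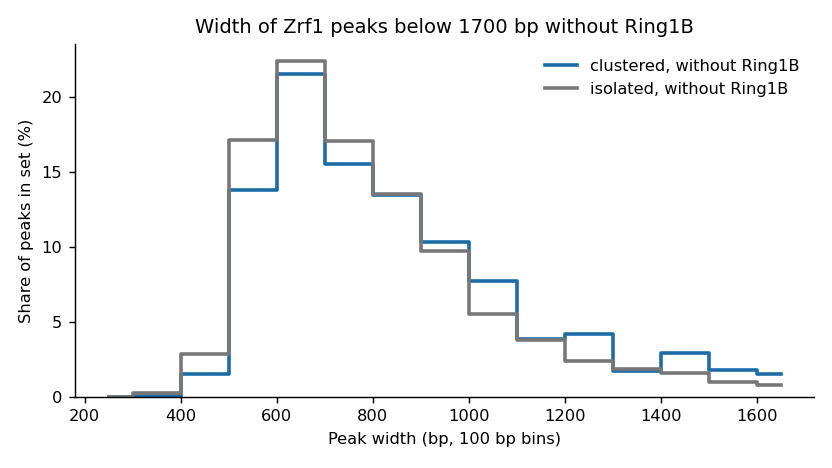
Share of peaks (vertical axis, percent of each set) by peak width in bp (horizontal axis, bins of 100 bp) for members (blue) and isolated Zrf1 peaks without Ring1B (grey). Both sets are highest between 600 and 700 bp, at 21.6% and 22.4%. Above 1000 bp the members have the larger share in every bin except 1300 to 1400 bp, for example 4.18% against 2.40% from 1200 to 1300 bp.

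The widths within pairs are described with no pairs of unrelated peaks set beside them. Over the 442 runs that are a pair of 2 members, the median width was 900.5 bp for the wider and 654.5 bp for the narrower peak, and the median ratio of wider to narrower was 1.28. In 32 of these pairs (7.24%) one peak was at least 2 times as wide as the other. The rank correlation between left and right widths was 0.10 (Spearman's rho, 442 pairs of 1 list, given as a description). The left peak was the wider in 216 pairs (48.9%). Their centres were a median of 3104 bp apart.

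The extremes of the set show its range. The widest members were 1692 bp on chromosome 6 (114578235 to 114579927), 1683 bp on chromosome 2 (121120323 to 121122006) and 1678 bp on chromosome 3 (3001066 to 3002744). The first of these lay in a run of 11 Zrf1 peaks, and a peak of the same run at 114556023 to 114557760 was left out at 1737 bp. The others just over the width limit measured 1705 bp on chromosome 5 (36613351 to 36615056) and 1711 bp on chromosome 6 (124649108 to 124650819). The narrowest members were 375 bp on chromosome 14 (68703941 to 68704316), 409 bp on chromosome 17 (86467714 to 86468123) and 438 bp on chromosome 7 (20418030 to 20418468). At the gap limit, a member on chromosome 8 (86185790 to 86186862) had its neighbour 4967 bp away, and a pair on the same chromosome (35111453 to 35111996 and 35116960 to 35117536) was 4964 bp apart. Just outside, a pair on chromosome 15 (38378870 to 38379664 and 38384666 to 38385545) was 5002 bp apart and a peak on chromosome 17 (27103733 to 27104505) had a gap of 5004 bp.

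The kinds of neighbour were counted next. A member had 1 or 2 adjacent Zrf1 peaks within 5000 bp, 1366 in all when each is counted from the side of the member. Of these, 1148 (84.0%) were members, 167 (12.2%) lay on Ring1B and 51 (3.73%) were wide peaks without Ring1B. Any narrow neighbour off Ring1B is a member by the rule, and such peaks made up 80.7% of the whole Zrf1 list, close to the 84.0%. The share of the whole list on Ring1B was 17.0%. Crowding as such went with little difference in Ring1B overlap: 310 of the 1643 Zrf1 peaks in any run lay on Ring1B (18.9%, 95% interval 17.0 to 20.8%), against 1666 of 10004 lone peaks (16.7%, 95% interval 15.9 to 17.4%). Presence or absence of Ring1B instead tended to be shared along a run. Over all 895 neighbouring pairs, neither peak lay on Ring1B in 636, one did in 176 and both did in 83. Next to a Zrf1 peak on Ring1B the neighbour was on Ring1B in 166 of 342 cases (48.5%), and next to one off Ring1B in 176 of 1448 (12.2%). In 39 of the 83 pairs a single Ring1B peak reached under both Zrf1 peaks. Of the 342 neighbours, 88 (25.7%) were on a different Ring1B peak, with those on the same Ring1B peak kept in the 342.

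Members in runs that also touch Ring1B were a minority. In 158 of the 678 runs (23.3%) at least 1 Zrf1 peak lay on Ring1B, and these runs held 195 members (15.4%, 95% interval 13.4 to 17.5%). The other 520 runs, with 1074 members, had no Zrf1 peak on Ring1B, and in 4 of them a Ring1B peak sat in the gap between Zrf1 peaks. Members of runs that touch Ring1B had a median width of 840 bp, and those of runs with no Ring1B overlap 766 bp. Under the same limit of 1700 bp, Zrf1 peaks on Ring1B had a median of 1027 bp in runs (244 peaks) and 1033 bp alone (1466 peaks).

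Ring1B peaks lay nearer to members than to isolated Zrf1 peaks, and the members were split by whether their run touched Ring1B. The nearest Ring1B peak was a median of 28412 bp from a member, with quartiles at 8522 and 68250 bp. From an isolated peak it was 50344 bp, with quartiles at 18413 and 128549 bp. Within 5 kb a Ring1B peak was found for 229 members (18.0%), against 8.07% of all 9404 Zrf1 peaks that met the width and Ring1B conditions and 6.52% of isolated peaks. In runs with a Zrf1 peak on Ring1B, 167 of 195 members had Ring1B within 5 kb (85.6%), a nearness that the presence of that neighbour largely fixes. In the runs with none, 62 of 1074 had it (5.77%, 95% interval 4.45 to 7.34%), overlapping the interval of isolated peaks (5.99 to 7.07%). Within 10 kb the values were 15.5% and 14.5%. The runs with none lack Ring1B under all of their Zrf1 peaks by selection. The split thus partly fixes these short-range shares too, and no source of the difference follows from them.

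At longer range members of runs without Ring1B overlap had Ring1B near in a larger share of cases. Within 50 kb it was found for 853 of all 1269 members (67.2%), against 52.1% of the 9404 peaks. For the 1074 members in runs without Ring1B overlap the share was 61.3% (95% interval 58.3 to 64.2%), and for isolated peaks 49.8% (95% interval 48.7 to 50.9%). Counted once per run, 328 of 520 such runs (63.1%) had a Ring1B peak within 50 kb of the run. The Ring1B peak nearest to a member was of ordinary width, with a median of 1333 bp against 1296 bp beside isolated peaks and 1324 bp in the whole Ring1B list.

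**Figure D3:**
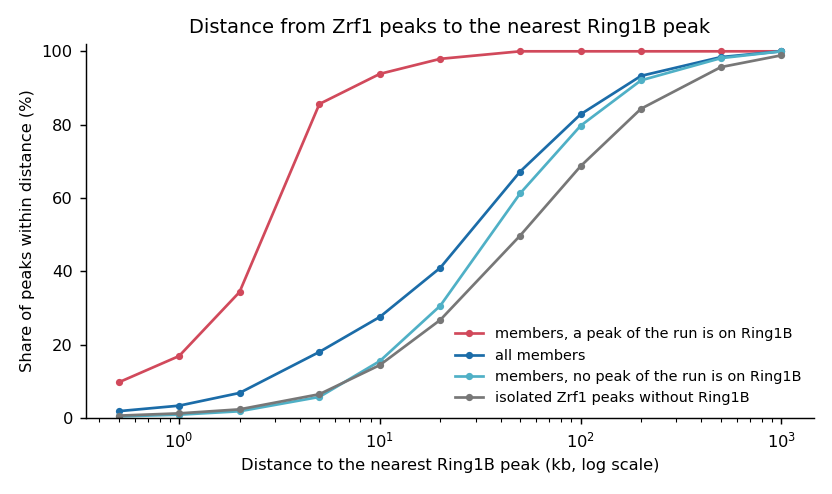
Share of Zrf1 peaks (vertical axis, percent) whose nearest Ring1B peak lies within a given distance (horizontal axis, kb on a log scale). Members in runs without Ring1B overlap follow isolated peaks up to 10 kb (15.5% and 14.5%). At 50 kb these members lie above isolated peaks (61.3% and 49.8%). Members whose run touches Ring1B reach 85.6% at 5 kb. The split of members by run partly fixes these shares at short range.

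The surroundings of members were richer in peaks of both proteins. Between 10 and 500 kb from the peak centre, members had a median of 12 other Zrf1 peaks (quartiles 7 and 18) and 10 Ring1B peaks (quartiles 6 and 15). Isolated peaks had 8 Zrf1 (quartiles 4 and 13) and 7 Ring1B peaks (quartiles 4 and 12). The 9404 peaks were therefore divided into bands by the number of Zrf1 peaks around them. The share of members rose from 7.32% in the band with 0 to 5 surrounding Zrf1 peaks to 21.7% with 15 to 46. In between it was 12.2% with 6 to 9 and 15.1% with 10 to 14. The bands leave out peaks within 10 kb of the centre, and the cause of the rise was not tested.

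Ring1B was then compared between the sets within each band, for runs without Ring1B overlap counted once each by their first member. With 0 to 5 surrounding Zrf1 peaks, 43 of 98 runs had Ring1B within 50 kb (43.9%, 95% interval 33.9 to 54.3%), against 31.1% (29.4 to 32.9%) of isolated peaks. With 6 to 9 the shares were 62.6% (53.1 to 71.5%) of 115 runs and 48.1% (45.9 to 50.4%). With 10 to 14 they were 63.2% (53.8 to 72.0%) of 117 runs and 61.3% (58.9 to 63.6%), and with 15 to 46 they were 70.5% (63.5 to 76.9%) of 190 runs and 70.3% (68.1 to 72.5%). The shares thus lay 12.8 and 14.5 percentage points apart in the sparser bands, and 1.97 and 0.200 in the denser ones. In the sparsest band the ends of the intervals nearly met. These are counting intervals from 1 library, and neither the differences nor their change between bands was tested. Median widths showed no single direction either: 783 bp for members and 714 bp for isolated peaks in the sparsest band, 760 and 731 bp in the next, 755 and 759 bp in the one after, and 814 and 774 bp in the densest.

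**Figure D4:**
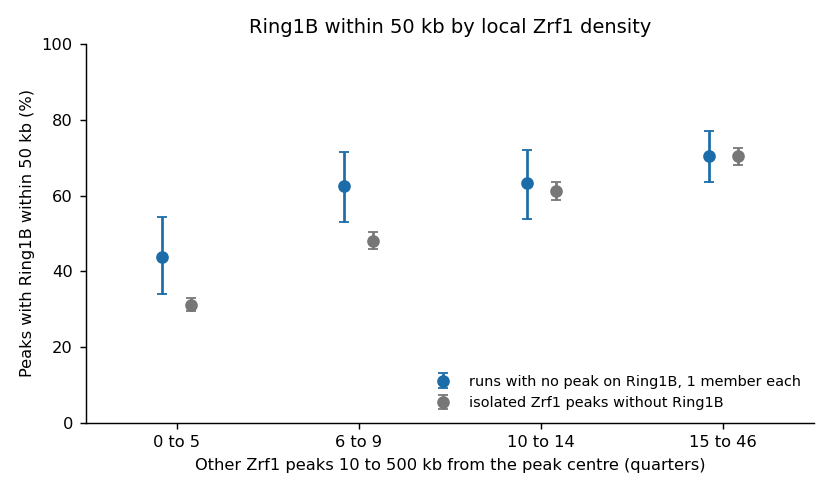
Share with a Ring1B peak within 50 kb (vertical axis, percent; bars are exact 95% binomial intervals, counting error only) by the number of other Zrf1 peaks 10 to 500 kb away (horizontal axis), for runs without Ring1B overlap counted once by their first member (blue) and isolated peaks (grey). The shares are 43.9% and 31.1% at 0 to 5, 62.6% and 48.1% at 6 to 9, and 70.5% and 70.3% at 15 to 46.

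A few members lay directly beside Ring1B. The closest was a peak on chromosome 5 (112823202 to 112823871), 5 bp from a Ring1B peak and 26 bp from its Zrf1 neighbour. Next were a peak on chromosome 12 (114174433 to 114176028) at 37 bp and one on chromosome 5 (110530016 to 110530598) at 54 bp. In all, 43 members (3.39%) had a Ring1B peak within 1 kb, against 1.29% of isolated peaks. Of the 43, 33 were in runs with a Zrf1 peak on Ring1B. In the other runs 10 of 1074 members (0.931%) had Ring1B that near. At the other extreme, the 3 members of a run on chromosome 7 (67041563 to 67050477) were the farthest from Ring1B, at 941471 to 949321 bp. All 1269 members had a Ring1B peak within 1 Mb, as did 98.9% of isolated peaks.

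Members were found on the X chromosome and all 19 autosomes, and they are given here as a share of the peaks that met the width and Ring1B conditions. Among autosomes the share ran from 8.07% on chromosome 3 (36 of 446, 95% interval 5.72 to 11.0%) to 17.7% on chromosome 8 (113 of 638, 95% interval 14.8 to 20.9%). Chromosome 15 had 17.5% (74 of 424) and chromosome 14 had 9.18% (28 of 305). Chromosome 5 held the most members, 114. Across the 19 autosomes the share rose with the number of Zrf1 peaks per Mb (Spearman's rho 0.75, a description, since both come from the same list). Chromosome 11, with the most Zrf1 peaks per Mb, had a share of 12.8%. The X chromosome had 15 members among 57 eligible peaks (26.3%, 95% interval 15.5 to 39.7%) at only 0.434 peaks per Mb. Of these, 10 belonged to a single run, and without that run 5 of 47 (10.6%) were members. Both eligible peaks of the Y chromosome were isolated.

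The spacing of runs was described at the scale of 1 Mb, with no other set beside it. Another run with members lay within 100 kb for 162 runs (23.9%) and within 500 kb for 403 (59.4%). The fullest stretches of at most 1 Mb were chromosome 8 from 123311117 to 124242489, with 8 runs and 17 members, and chromosome 9 from 121014477 to 121948534, with 8 runs and 15 members. Ring1B peaks numbered 19 and 13 there. Chromosome 15 from 100307683 to 101193057 held 7 runs with 14 members and 20 Ring1B peaks. By contrast, 45 Ring1B peaks accompanied 7 runs with 8 members on chromosome 10 (79353120 to 80270421), and 3 accompanied 6 runs with 13 members on chromosome 5 (112795752 to 113649989). Ring1B counts in these stretches thus ran from 3 to 45, and no count over other stretches was set beside them.

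The outer parts of the chromosomes held 49 members (3.86%, 95% interval 2.87 to 5.07%) in 21 runs, within 1 Mb of the first or last Zrf1 peak. This compares with 2.12% of all 9404 peaks and 1.84% of isolated ones. A run that holds the first or last Zrf1 peak of a chromosome counts as near an end by this measure. The X chromosome supplied 11 of the 49 and chromosome 3 supplied 8, while chromosomes 1, 2, 5, 8, 9, 12, 14 and 16 supplied none. The 2 runs with the most members, on X and 3, accounted for 16 of the 49. Without these 2 runs the share was 2.63%. Of the members in runs that touch Ring1B, 24 of 195 (12.3%) lay at the ends, and without the same 2 runs 8 of 179 (4.47%). Of those in the other runs, 25 of 1074 (2.33%) did. Signal of the IgG library and repeat content in these regions were not analysed here.

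Of the 11 runs with 4 or more members, 10 are described, with ties in number ordered by the sequence that members cover, which leaves out a run of 4 members on chromosome 10. The first was on the X chromosome from 166578494 to 166632874, where 17 Zrf1 peaks covered 40.2 of 54.4 kb (73.9%). Its 10 members measured 596 to 1560 bp and lay among 7 peaks of 1755 to 7020 bp. The first and leftmost of those, 4876 bp wide, lay over a Ring1B peak of 988 bp (166582006 to 166582994). The second run, on chromosome 3 from 3000056 to 3033391, had 10 Zrf1 peaks with 6 members, and its widest peak of 6807 bp covered a Ring1B peak of 742 bp (3012970 to 3013712). Both runs lay in the outer 1 Mb of their chromosomes, and in both the Ring1B peak was small beside the Zrf1 peak above it.

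The third run, on chromosome 6 from 114551370 to 114584990, was about as long as the second but had no Ring1B peak within 107 kb. Its 11 Zrf1 peaks measured 1479 to 2738 bp, and the limit of 1700 bp split them into 5 members and 6 peaks left out. A further run on chromosome 6, from 100403340 to 100418950, had 4 members among 6 Zrf1 peaks, with Ring1B no nearer than 93.5 kb. In both runs on chromosome 6 the width limit rather than Ring1B kept peaks out of the set.

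The other leading runs were smaller and mostly made of members alone. On chromosome 10, 5 members of 695 to 1147 bp lay between 74383420 and 74392847, and only 5.43 kb further on another run (74398281 to 74405120) held 4 Zrf1 peaks with 3 members. Runs of 4 members and no other peak lay on chromosome 9 (45938548 to 45946583), chromosome 17 (8100560 to 8106757 and 27251147 to 27262722) and chromosome 1 (183340956 to 183353090). Their nearest Ring1B peaks were 118, 31.0, 7.12 and 56.9 kb away. On chromosome 18 (63811812 to 63819735) 4 members of 574 to 1278 bp followed a Zrf1 peak of 2842 bp that covered a Ring1B peak of 1508 bp. The gaps in that run were 38 to 482 bp, and Zrf1 peaks covered 84.4% of it, the highest share among the 10 runs. The lowest was 26.4%, in the run on chromosome 1, where gaps were 1645 to 3708 bp.

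**Figure D5:**
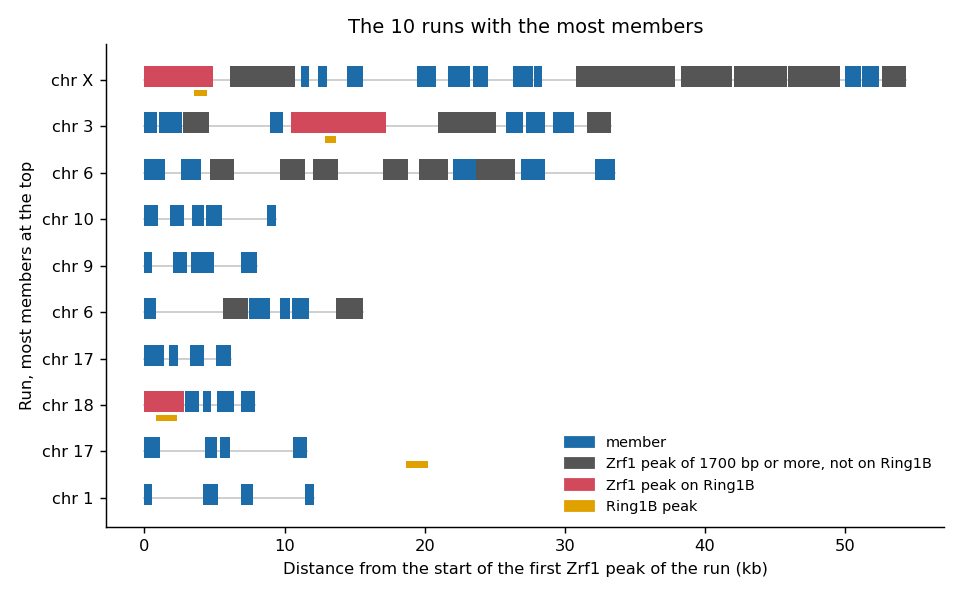
Zrf1 peaks of the 10 runs with the most members, drawn to scale as distance in kb from the start of the run (horizontal axis), one row per run (vertical axis). Blue blocks are members, dark grey blocks Zrf1 peaks of at least 1700 bp off Ring1B, red blocks Zrf1 peaks on Ring1B and yellow blocks Ring1B peaks; 3 of the 10 runs touch Ring1B, and the 54.4 kb run on the X chromosome is the longest.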

How the data were processed

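Reads were handled with Bowtie 0.12.7, which aligns them, and MACS 1.4.2, which calls peaks, on build mm9, per the submitters' processing notes. The sources used here do not give threshold, control or later filters. The deposited lists hold chromosome, start and end in bp (3 columns) and no score. The antibody named by a list tied it to 1 library. Coordinates are as deposited, and whether starts count from 0 or 1 is not given. Overlap with Ring1B needed 1 bp. Gaps ran from the end of a peak to the start of the next.

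Members and comparisons were chosen with earlier results of these data known. Named regions were the 10 runs with the most members (ties by bases covered by members). The closest pairs (the 10 shortest gaps between 2 members, not all printed) were also named. So were the widest and narrowest members and the peaks at the thresholds. Members nearest to and farthest from Ring1B and the fullest stretches were added after their values were seen. The bands of density, the neighbour pairs and the merging were likewise chosen after seeing the data. Planned results on gene starts and GC content were not run, since the gene and sequence tables at hand are for GRCm38 and coordinates were not converted, so genes and sequence at the peaks were not analysed here. The rule was tested on simulated data, and overlaps equalled those of bedtools 2.31.1. Calculations used SciPy 1.17.1, pandas 2.3.3 and NumPy 2.4.6 under Python 3.11.15, with plots by matplotlib 3.10.9.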

Additional observations from a re-analysis of the deposited data

How the results depend on the processing

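Recomputed were 6 results: the numbers of members and runs, the median width, and the shares of members with Ring1B within 50 kb, near a chromosome end and in runs with a Zrf1 peak on Ring1B. The other values were not recomputed. Alternatives were other limits on gap, width and overlap, and starts counted from 1. Peaks within 1 Mb of the first or last Zrf1 peak of a chromosome were also left out, though not for the share near an end. Merged peaks and leaving out the 2 runs with the most members were added after seeing the data. The share of members with Ring1B within 50 kb stayed within its 95% interval in all 11 alternatives computed for it. With gaps of at most 2000 bp there were 593 members in 318 runs, of which 5.23% lay near a chromosome end and 10.8% in runs with a Zrf1 peak on Ring1B. With gaps of at most 10000 bp there were 2147 members in 1124 runs, with shares of 2.84% and 19.5%. A limit of 1200 bp gave a median width of 734 bp, by its construction. With the end distance set to 3 Mb, 12.8% of members lay near a chromosome end. A longer distance can only raise this share, and no share of other peaks at 3 Mb was set beside it. Within 1 Mb the share was 2.67% after merging over 500 bp and 2.63% without the 2 runs. Those 2 runs held 16 of the 49 members near an end. A longer gap limit can only add members, and a shorter one can only remove them. The causes of the other shifts were not tested. No paired analysis was possible because each antibody has 1 library. Depth is unknown, so a missing Ring1B peak does not show missing binding.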
